A study of Mus musculus with 6 samples.

Results

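The cluster of miR-191 and miR-425 is a pair of microRNA (miRNA) hairpins on mouse chromosome 9, and its mature products were measured in extracellular vesicles from mouse brain. Its members were chosen by name and locus from the authors' deposited RPM table: miR-191-5p, miR-191-3p, miR-425-5p and miR-425-3p, which are 4 of 1926 listed miRNAs and 4 of 775 detected ones. The cluster was selected on the known SE and CON levels of miR-191-5p as well, and the CON rows were named through base means. The RPM unit gives reads after every library is scaled to the same total. There were 6 libraries in 2 groups: 3 came from mice that had been through a prolonged seizure, status epilepticus (SE), and 3 from controls (CON). A time of 24 hr stands in the series title. Strain, age, sex and the way seizures were induced are not given in the sources used here. Whether each replicate was a separate animal or a pool is left unsaid by the labels, so the spread between replicates may be technical. "SE" below always means status epilepticus, and standard errors are written out.

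A miRNA hairpin is cut by Drosha and Dicer into a short duplex, and usually the guide arm is kept in an Argonaute protein while the passenger arm is degraded. The guide finds messenger RNAs mainly through its seed, bases 2 to 8, and lowers their translation and stability. Hairpins of a shared primary transcript are made together, yet each product is then processed, loaded and degraded on its own. miR-191-5p is abundant in brain, blood and many other tissues and is often used to normalise miRNA assays. In rodent hippocampal neurons it has been linked to spine remodelling in long-term depression. miR-425-5p was shown in human cells to lower the messenger RNA of the natriuretic peptide gene NPPA, and miR-425-3p was formerly catalogued as the minor, or star, arm of its hairpin.

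The mature sequences are shown because the results turn on the balance between these arms. They are from the RefSeq table for GRCm38.p6, in which all 4 arms were found, written 5′ to 3′ with the seed in capitals.
miR-191-5p: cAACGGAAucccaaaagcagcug
miR-191-3p: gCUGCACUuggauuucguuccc
miR-425-5p: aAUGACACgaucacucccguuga
miR-425-3p: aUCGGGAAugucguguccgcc
The 4 seeds are all different. Among the 1679 mature miRNA names of that table, only miR-489-3p shares a seed with an arm, that of miR-425-5p, and it lies on chromosome 6.
miR-489-3p: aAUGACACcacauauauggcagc
miR-489-3p was at 0 RPM in all 6 libraries. With 3 reads as the floor, a 0 leaves room for 0.277 RPM in the deepest and 0.547 RPM in the shallowest library, by counting error alone. No library held a value of 1 read, so single reads may be missing from the table.

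The hairpins from which the arms are cut are given with the arms in capitals, since each pair of arms faces the other across a loop.
Mir191: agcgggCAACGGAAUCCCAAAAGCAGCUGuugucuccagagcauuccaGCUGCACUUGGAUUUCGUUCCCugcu
Mir425: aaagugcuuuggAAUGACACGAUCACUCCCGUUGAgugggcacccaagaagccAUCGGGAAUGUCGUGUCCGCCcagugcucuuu
Mir191 spans chr9:108568319-108568392 and Mir425 spans chr9:108568777-108568861 in GRCm38, both on the plus strand and 384 bases apart. The arms are separated by 19 bases in Mir191 and by 18 bases in Mir425. RefSeq places both hairpins inside the span of Dalrd3, chr9:108567484-108572773, a gene whose protein takes part in transfer RNA methylation in human cells. GENCODE starts Dalrd3 downstream of both hairpins, at position 108569886, and puts them in the long non-coding gene 4833445I07Rik, chr9:108567533-108569174. Both hairpins lie within the single exon of its transcript 4833445I07Rik-201, and Mir191 lies in the intron of 4833445I07Rik-202. GENCODE also lists a miRNA gene on the opposite strand over Mir191, Gm24083, chr9:108568295-108568414. No source used here says whether reads were counted by strand. The authors' build is named as mm9 in the submitters' processing notes, and the deposited files hold no coordinates.

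The libraries held 6016533 to 10845434 miRNA reads in the SE group and 5482407 to 6504884 in the CON group, and SE replicate 1 was the deepest. In the authors' deposited RPM table the CON columns do not follow the row names. Each CON row was given its name through the base means in the authors' fold change table, and all CON values below rest on that step. Each of the 4 arms had a single candidate row, with a relative difference of at most 8.56e-10. Of 11 neuronal miRNAs, all 11 had a mean of at least 10 RPM, and miR-124-3p, a neuronal miRNA, ranged over 1788 to 3082 RPM in SE libraries, against 1689 to 2410 RPM in CON libraries. The red cell miRNAs miR-144-3p and miR-144-5p were at 0 in all 6 libraries, and miR-451a was at 0 in the SE libraries and at 0 to 0.922 RPM in the CON libraries. Others of the red cell list were present. miR-486a-5p, merged with miR-486b-5p, was at 16.8 to 32.2 RPM in SE libraries, against 19.1 to 28.6 RPM in CON libraries. miR-16-5p and miR-185-5p averaged 7288 and 2100 RPM in SE libraries, against 8961 and 1977 RPM in CON libraries. The labels SE and CON are checked by no value in the sources used here, and the direction of every difference below rests on them.

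miR-191-5p was by far the most abundant product of the cluster. It stood at 12606, 10625 and 11721 RPM in SE replicates 1, 2 and 3, against 14624, 14688 and 15735 RPM in CON replicates 1, 2 and 3. All 3 SE values lay below all 3 CON values, and the highest SE value was replicate 1. The means were 11651 RPM ± 992 in SE libraries, against 15016 RPM ± 624 in CON libraries (SD, n = 3 each), a fold of 0.776. These values rest on 63927 to 136715 reads per library, so that counting error is at most 0.396% of a value and the spread lies between libraries. It ranked 11 to 13 among the miRNAs of an SE library and 10 in each CON library. Over the 6 libraries its nearest neighbours in level were miR-7a-5p, at 19877 RPM, and miR-26a-5p, at 12852 RPM. In SE libraries miR-26a-5p averaged 12924 RPM, against 12780 RPM in CON libraries, so it lay above miR-191-5p in SE libraries and below it in CON libraries.

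miR-425-3p, the former star arm, had the next highest level. It stood at 35.3, 44.2 and 42.4 RPM in SE replicates 1, 2 and 3, against 70.4, 52.7 and 55.0 RPM in CON replicates 1, 2 and 3. Again no SE value reached a CON value, and CON replicate 1 stood apart at the top. The means were 40.7 RPM ± 4.71 in SE libraries, against 59.4 RPM ± 9.63 in CON libraries (SD, n = 3 each), a fold of 0.685, from 266 to 394 reads per library. Its neighbours in level were miR-328-3p, at 51.0 RPM, and miR-138-2-3p, at 47.8 RPM over the 6 libraries.

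miR-425-5p, the arm with the NPPA role, was less abundant than its partner in all 6 libraries. It stood at 22.8, 16.1 and 18.7 RPM in SE replicates 1, 2 and 3, against 13.8, 17.1 and 19.2 RPM in CON replicates 1, 2 and 3. The groups overlapped, with SE replicate 1 highest and CON replicate 1 lowest. The means were 19.2 RPM ± 3.36 in SE libraries, against 16.7 RPM ± 2.75 in CON libraries (SD, n = 3 each), from 77 to 247 reads per library. miR-5113 and miR-199a-3p/199b-3p, a merged entry of the authors, lay next to it at 18.9 and 17.7 RPM.

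miR-191-3p, the passenger arm of the abundant hairpin, was the least abundant of the 4 and ranked 344 of the 775 detected miRNAs by mean level. It stood at 5.53, 5.82 and 6.88 RPM in SE replicates 1, 2 and 3, against 3.93, 5.11 and 7.99 RPM in CON replicates 1, 2 and 3. The SE values lay within the range of the CON values. The means were 6.08 RPM ± 0.708 in SE libraries, against 5.68 RPM ± 2.09 in CON libraries (SD, n = 3 each). With 22 to 60 reads per library, counting error alone is 12.9% to 21.3% of a value. Next to it in level were the merged entry let-7a-1-3p/7c-2-3p and miR-7056-5p, at 5.88 and 5.82 RPM.

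**Figure D1:**
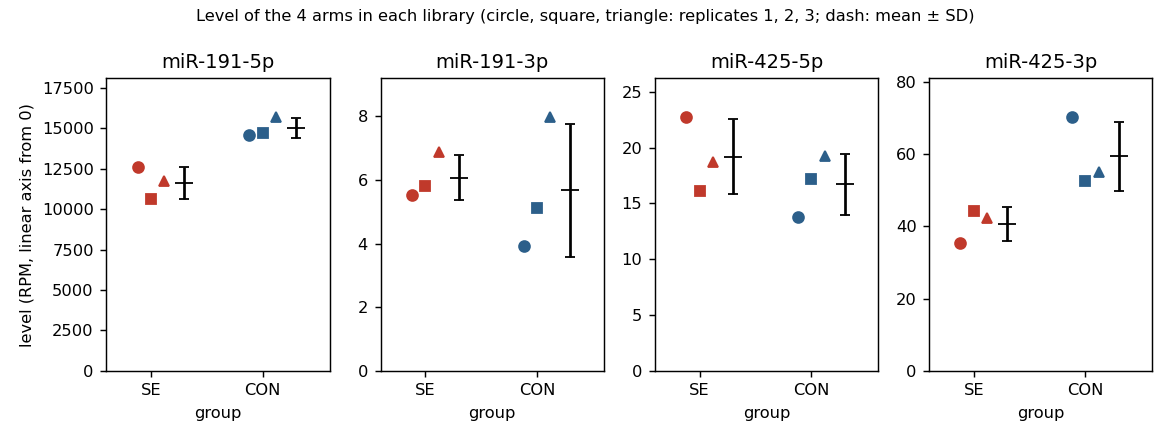
The level of each arm in RPM (vertical, linear from 0, a scale of its own per panel) is plotted for the SE libraries (red, left) and the CON libraries (blue, right), with circle, square and triangle for replicates 1, 2 and 3 and a dash with bars for the mean ± SD. The SE points lie below the CON points for miR-191-5p and miR-425-3p, and the groups overlap for miR-191-3p and miR-425-5p.

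Of the 4 arms, 3 had a mean of at least 10 RPM and entered the comparison of 290 miRNAs, and miR-191-3p did not. The comparison was fitted with limma-trend on log2(RPM + 1), on which changes of low miRNAs come out too small, with Benjamini-Hochberg adjustment over all miRNAs in the fit. Since the cluster was selected on this same contrast, the following values describe the arms and support nothing. 0 of the 3 arms passed an adjusted p under 0.05, against 1.03% of all 290 miRNAs. At an unadjusted p under 0.05 were 2 of the 3 arms and 27 of the 290 miRNAs, and limma-voom on the recovered reads also called 0 arms. With median-of-ratios scaling the unadjusted limma p was 0.0598 for miR-191-5p and 0.0574 for miR-425-3p. For miR-425-3p the unadjusted limma p was also 0.0754 with quantile normalization, 0.0843 without SE replicate 1, 0.0530 without SE replicate 2 and 0.109 without CON replicate 1.

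The log2 fold change, SE over CON, was -0.37 (standard error 0.12, limma adjusted p = 0.231) for miR-191-5p. It was -0.53 (standard error 0.22, limma adjusted p = 0.437) for miR-425-3p. miR-425-5p had 0.19 (standard error 0.25, limma adjusted p = 0.871). In a fit of all 775 detected miRNAs miR-191-3p had 0.12 (standard error 0.32, limma adjusted p = 0.939). The 95% intervals ran from -0.62 to -0.12 for miR-191-5p, from -0.99 to -0.067 for miR-425-3p, from -0.35 to 0.72 for miR-425-5p and from -0.62 to 0.87 for miR-191-3p. So 2 arms had negative and 2 had positive values, and each hairpin had an arm of either sign. The median over the 3 arms in the comparison was -0.37, beside -0.072 over all 290 miRNAs, of which 37 had a lower value than miR-191-5p and 13 a lower value than miR-425-3p. With median-of-ratios scaling, which moved the median of all 290 miRNAs to 0.028, the values were -0.26 for miR-191-5p, -0.43 for miR-425-3p and 0.29 for miR-425-5p.

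2 of the 3 arms had SE values apart from all CON values, both lower in SE, against 14.8% of all 290 miRNAs in either direction and 13.4% with SE lower. The difference of miR-425-5p was 0.064 without SE replicate 1 and 0.063 without CON replicate 1. miR-191-3p turned to -0.072 without CON replicate 1. 0 of the 4 arms was called in the authors' deposited table, against 1.04% of 772 miRNAs. That table does not name its direction. Its signs are opposite to the SE over CON values for all 4 arms. If the group labels are right, a positive value there means that CON libraries had more of the miRNA. The naming of CON rows took miRNAs with strongly negative values there as present mainly in the SE columns. As the labels are unchecked, the direction of that table was not tested apart from that step. The log2 fold change in the authors' deposited table was 0.26 for miR-191-5p, 0.43 for miR-425-3p, -0.30 for miR-425-5p and -0.20 for miR-191-3p. The authors' deposited table gives adjusted p = 0.499 for miR-191-5p and 0.975 for the other arms.

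**Figure D2:**
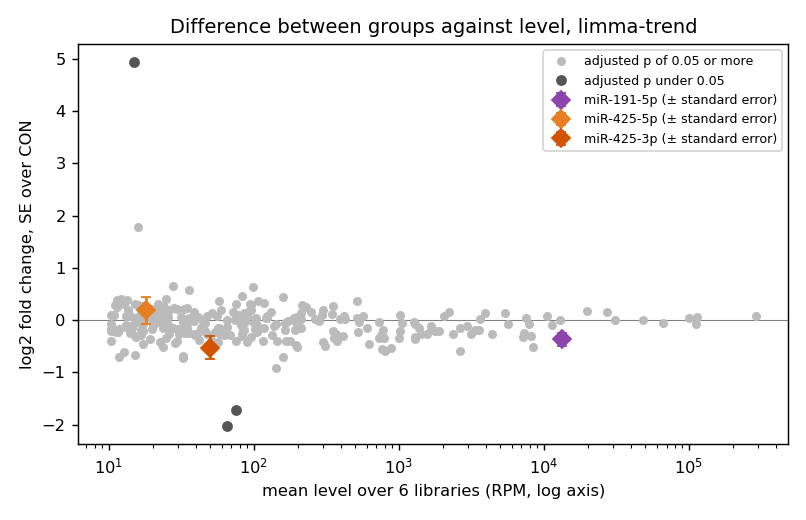
The log2 fold change, SE over CON (vertical), is plotted against the mean level over the 6 libraries (horizontal, RPM, log axis) for the 290 miRNAs of the limma-trend fit, with dark points for the 3 called miRNAs and diamonds with standard errors for the arms. miR-191-5p at -0.37 and miR-425-3p at -0.53 lie among the lower values at their levels, and miR-425-5p at 0.19 lies among the rest.

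The level of miR-191-5p sets the level of the cluster as a whole. The 4 arms together took 1.27%, 1.07% and 1.18% of the miRNA reads in SE replicates 1, 2 and 3, against 1.47%, 1.48% and 1.58% in CON replicates 1, 2 and 3. miR-191-5p made up 99.4% to 99.5% of these reads in either group. The let-7 family, regulators of developmental timing that filled most of each library, took 78.2% to 81.0% of reads in SE libraries, against 77.2% to 79.0% in CON libraries. As let-7 shares move every RPM value, miR-191-5p was also expressed per read outside the let-7 family. On that scale it took 5.79%, 5.25% and 6.17% in SE replicates 1, 2 and 3, against 6.41%, 6.98% and 7.02% in CON replicates 1, 2 and 3. The groups did not overlap on this scale either, but it holds the same SE and CON values on which the cluster was selected. In RPM the groups did not overlap for 14.8% of all 290 miRNAs, and that share was not taken on this scale.

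The arms of the hairpins were used in opposite directions, very unequally in miR-191 and much less so in miR-425. Over all 6 libraries miR-191-5p had 543743 reads and miR-191-3p 243, so the 5p arm was 2238-fold more abundant. For miR-425 the 3p arm led, with 1974 reads against 765 for the 5p arm, a fold of 2.58. As mature miRNAs are of nearly equal length, 21 to 23 bases here, no length correction was made. Ligation and capture can differ between sequences, so such ratios are of reads and not of molecules.

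The 3p arm took 60.8%, 73.3% and 69.4% of the miR-425 reads in SE replicates 1, 2 and 3, against 83.7%, 75.5% and 74.1% in CON replicates 1, 2 and 3. Every SE share lay below every CON share, but SE replicate 2 and CON replicate 3 were close. Their exact (Clopper-Pearson) 95% intervals, 68.4% to 77.8% and 70.0% to 78.0%, overlapped. These intervals cover counting error only. The mean share was 67.8% ± 6.39 in SE libraries, against 77.7% ± 5.16 in CON libraries (SD, n = 3 each). For miR-191 the 3p arm took 0.0439%, 0.0547% and 0.0586% of the reads in SE replicates 1, 2 and 3, against 0.0269%, 0.0348% and 0.0508% in CON replicates 1, 2 and 3. CON replicate 3 lay within the SE range, so the groups overlapped.

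**Figure D3:**
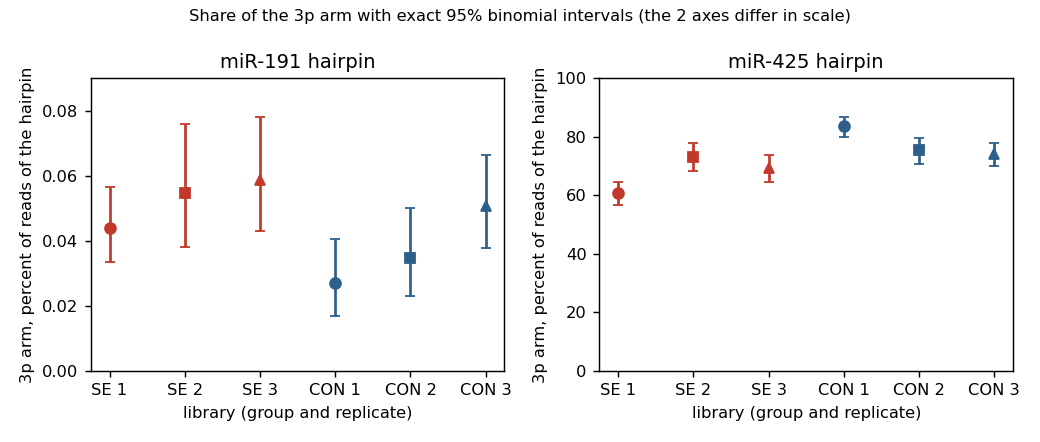
The share of the 3p arm among the reads of its hairpin (vertical, percent, with exact 95% binomial intervals) is plotted by library for miR-191 (left panel) and miR-425 (right panel), on axes of different scale, with SE libraries in red and CON libraries in blue. The 3p arm of miR-425 took 60.8% to 73.3% in SE libraries, against 74.1% to 83.7% in CON libraries, and the 3p arm of miR-191 ran from 0.0269% to 0.0586%.

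On the log2 scale, the 5p to 3p ratio of miR-425 was -0.61, -1.40 and -1.14 in SE replicates 1, 2 and 3, against -2.27, -1.57 and -1.47 in CON replicates 1, 2 and 3. The mean was -1.05 ± 0.40 in SE libraries and -1.77 ± 0.44 in CON libraries (SD, n = 3 each), a difference of 0.72, and the groups did not overlap. It was 0.47 without CON replicate 1. The groups did not overlap in 9.76% of the 164 hairpins that had both arms named and at least 10 RPM in all, and in 6.10% with SE higher. Hairpins with a merged arm or with reads of the 3p arm alone were left out, while a 3p arm could be at 0. 9 of the 164 had a larger positive difference than miR-425. As this ratio holds the same SE and CON values as the arms, it is a description with no test. For miR-191 the ratio was 10.69 ± 0.20 in SE libraries, against 11.18 ± 0.38 in CON libraries (SD, n = 3 each), and the groups overlapped. Its difference was -0.49, and -0.32 without CON replicate 1.

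Among the 164 hairpins the median log2 ratio of 5p to 3p was 2.89, and the 3p arm led in 59, miR-425 being 1 of them. As hairpins with no 5p reads were left out, this median and this count can lean to the 5p arm. miR-191 averaged 10.93 over the 6 libraries on this scale, on which the pseudocount of 1 RPM limits the ratio of hairpins with few 3p reads. By the share of 3p reads, 27 hairpins lay below the 0.0447% of miR-191, and 18 of these were at 0. The ratio varied over the 6 libraries with an SD of 0.54 for miR-425 and 0.38 for miR-191, beside a median of 0.43 over the 164 hairpins.

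**Figure D4:**
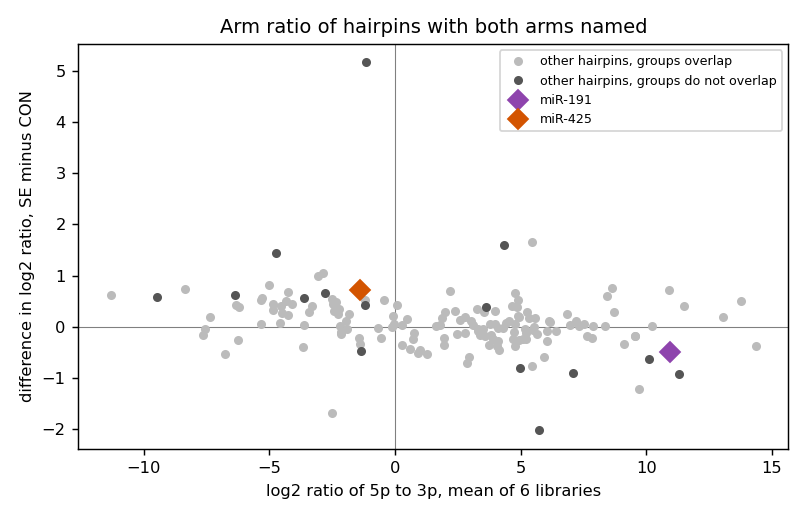
The difference in the log2 ratio of 5p to 3p, SE minus CON (vertical), is plotted against the mean ratio over the 6 libraries (horizontal) for 164 hairpins with 5p reads, with dark points where SE and CON values do not overlap. miR-191 lies far to the right at 10.93 with a difference of -0.49, and miR-425 lies left of 0 with a difference of 0.72.

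Although the hairpins sit 384 bases apart on the same strand, their products differed widely in level. miR-191-5p had 554, 659 and 627 reads per read of miR-425-5p in SE replicates 1, 2 and 3, against 1062, 857 and 819 in CON replicates 1, 2 and 3. All SE ratios lay below all CON ratios. With both arms of each hairpin summed, miR-191 had 217, 176 and 192 reads per miR-425 read in SE replicates 1, 2 and 3, against 174, 210.3 and 212 in CON replicates 1, 2 and 3. On this sum the groups overlapped. The log2 ratio of miR-425-5p to miR-191-5p was -9.18 ± 0.12 in SE libraries and -9.74 ± 0.19 in CON libraries (SD, n = 3 each), a difference of 0.56.

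The same ratio was taken for 15 pairs of miRNAs made from other shared transcripts, of which 12 had both names at a mean of at least 10 RPM. That minimum removes pairs with a scarce partner. The levels of the 12 differed by 1.38-fold to 232-fold, with a median of 3.42-fold. miR-425-5p and miR-191-5p differed by 743-fold over the 6 libraries, and among the 3 pairs under the minimum miR-127-3p with miR-136-5p differed by 861-fold. The SD of the log2 ratio over the libraries was 0.34 for miR-425-5p to miR-191-5p and 0.26 for miR-425-3p to miR-191-5p, within the 0.080 to 0.62 of the 12 pairs. The SE minus CON difference of the 12 pairs had a size of 0.0048 to 0.38, and the groups did not overlap in 1 of them, the merged entries miR-23a-3p/23b-3p and miR-27a-3p/27b-3p, whose reads can come from more than 1 cluster. In the 11 pairs with no merged entry the size was at most 0.28, and the groups overlapped in all 11. Unmerged names can also be made by more than 1 hairpin, as the numbered 3p arms of miR-30c and miR-125b show. So the ratios of such pairs need not be of 1 transcript alone. Under the minimum, miR-182-5p with miR-183-5p had 0.62 with overlapping groups. The differences were 0.56 for miR-425-5p to miR-191-5p and -0.16, with overlapping groups, for miR-425-3p to miR-191-5p, and no test of them was made.

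Likeness of profiles was measured as the root mean square difference between centred log2(RPM + 1) values over the 6 libraries, against the 289 other miRNAs of the comparison. Nearest to miR-191-5p were miR-99b-5p at 0.070, miR-421-3p at 0.078 and miR-99b-3p at 0.087, where the median of all 289 was 0.27. miR-425-3p stood at place 103 with 0.23 and miR-425-5p at place 171 with 0.31. Nearest to miR-425-5p were miR-98-5p at 0.075, miR-410-5p at 0.083 and miR-138-5p at 0.091, beside a median of 0.31. From miR-425-5p, miR-191-5p stood at place 137 and its own partner arm miR-425-3p at place 263. All values share the same libraries, depth and let-7 content.

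miR-191-5p is often used to normalise miRNA assays, and 16 other miRNAs used that way were set beside it. 13 had a mean of at least 10 RPM, and 0 of the 13 passed by limma, where 1.03% of all 290 miRNAs did; the counts for the lists below stand beside the same 1.03%. A negative log2 fold change was found for 9 of the 13, with a median of -0.14, and for 59.7% of all 290 miRNAs, with a median of -0.072. The most abundant was miR-151-5p, at 11011 RPM ± 2203 in SE libraries, against 11663 RPM ± 970.3 in CON libraries (SD, n = 3 each). miR-16-5p stood at 7288 RPM ± 271 in SE libraries, against 8961 RPM ± 872 in CON libraries (SD, n = 3 each), and its groups did not overlap. The entry for miR-103-3p, merged with miR-107-3p, averaged 3149 RPM in SE libraries, against 3554 RPM in CON libraries. miR-26b-5p averaged 2846 RPM in SE libraries, against 3434 RPM in CON libraries, again with no overlap. The summed level of the list was 26954 to 31648 RPM in SE libraries, against 31678 to 35250 RPM in CON libraries.

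miR-191-5p is also abundant in blood cells, so lists of other cell types were placed beside it. The 9 miRNAs of microglia and leukocytes summed to 942 to 1230 RPM in SE libraries, against 1239 to 1401 RPM in CON libraries. Of the 6 in the comparison miR-155-5p, which inflammatory signals induce, fell (log2 fold change -2.02, standard error 0.21, limma adjusted p = 4.36e-06). The myeloid markers miR-142a-3p and miR-223-3p were at 4.93 to 13.6 and 4.63 to 8.94 RPM in SE libraries, against 6.93 to 16.4 and 3.47 to 11.4 RPM in CON libraries. miR-342-3p, miR-181b-5p and miR-142a-5p were the other abundant members, and their groups overlapped. miR-146a-5p, which inflammatory signals also induce, averaged 33.5 RPM in SE libraries, against 21.6 RPM in CON libraries (log2 fold change 0.65, limma adjusted p = 0.385), and its groups overlapped. The 7 erythrocyte names summed to 8893 to 9817 RPM in SE libraries, against 10242 to 11483 RPM in CON libraries, and 0 of the 3 in the comparison passed. These were miR-16-5p, which made up most of the sum, miR-486a-5p, an entry merged with miR-486b-5p, and miR-185-5p, which averaged 2100 RPM in SE libraries, against 1977 RPM in CON libraries. miR-451a, miR-144-3p, miR-144-5p and miR-363-3p of that list were at or near 0.

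The 7 platelet names summed to 7125 to 8198 RPM in SE libraries, against 8126 to 9776 RPM in CON libraries. They were led by miR-126a-3p, miR-24-3p, miR-126a-5p and miR-21a-5p. Of the 6 in the comparison miR-21a-5p, which many injured tissues induce, fell (log2 fold change -1.72, standard error 0.23, limma adjusted p = 1.05e-04). The 11 neuronal names, led by miR-7a-5p, miR-127-3p, miR-9-5p and miR-128-3p, summed to 52734 to 57898 RPM in SE libraries, against 54925 to 60401 RPM in CON libraries, and 0 passed. In the liver list, with 4 of 5 names in the table, 0 of 2 passed. Its leading member miR-122-5p ranged over 89.4 to 114 RPM in SE libraries, against 150.2 to 233 RPM in CON libraries, with no overlap. It lay just over the cut (log2 fold change -0.91, standard error 0.22, limma adjusted p = 0.0504). Next in level were miR-194-5p and miR-192-5p, which averaged 10.8 and 3.93 RPM in SE libraries, against 12.5 and 4.71 RPM in CON libraries. miR-122-3p was at 0 in all libraries. The lists share members: miR-16-5p and miR-24-3p are also among those used to normalise assays, and miR-223-3p and miR-150-5p stand in the leukocyte and platelet lists. The SE and CON sums of the microglia and leukocyte, erythrocyte and liver lists did not overlap. Nor did those of the list used to normalise assays, and all 4 sums were lower in SE libraries. Of the 290 single miRNAs 13.4% were lower in SE without overlap, and no such share was taken for sums. Each sum is weighted to its most abundant members. miR-342-3p, with overlapping groups, led the leukocyte sum, and miR-16-5p, without overlap, led the erythrocyte sum. The leukocyte sums lay close, with at most 1230 RPM in SE libraries and at least 1239 RPM in CON libraries. That gap is smaller than the difference of its called member miR-155-5p, at 21.4 to 28.2 RPM in SE libraries, against 99.4 to 111 RPM in CON libraries. The part of these cell types in the values of miR-191-5p was not tested. In these vesicle preparations, fewer vesicles of a cell type and less of a miRNA per vesicle cannot be told apart.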

How the data were processed

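Vesicle RNA was extracted with a column kit and made into QIAseq miRNA libraries, per the labels' protocols. Use of molecular identifiers, the aligner and the counter are not given in the sources used here. The submitters' processing notes name mm9 as a build and DESeq2 as a tool, with no role. The authors' deposited table of RPM values scales reads to the same total per library. If the lowest value of a column is read as 2 reads, all values come out as whole reads within 0.01, which gave the depths and recovered reads. The authors' deposited table of fold changes gives, per the file headers, a base mean (a signal of size-factor-scaled reads), log2 fold changes with standard errors, a Wald score and p-values, and it was copied and not refitted.

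In the authors' deposited RPM table both group means descend down the file, so the names fit 1 group alone. The CON total of a miRNA is its base mean times 6, less its SE reads over the SE size factors. These size factors were fitted first on miRNAs with strongly negative log2 fold changes in the authors' fold change table. They were then refitted on miRNAs with a CON total near 0. A CON row fitted each of the 687 totals above 0 (relative tolerance 1e-05), and 88 totals were 0. The recovered CON reads summed to 17581171 before and after.

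Groups were compared by limma-trend on log2(RPM + 1) with R 4.3.3 and limma 3.58.1, two-sided, for a mean of at least 10 RPM, and miR-191-3p, under that mean, was taken from a fit of all detected miRNAs. The limma-trend fit was tested on simulated counts with known changes. These were larger than those of the arms and spared the most abundant miRNAs. How well the fit finds changes of the size seen for the arms was not tested. Ratios used a pseudocount of 1 RPM unless given as reads. Other settings tried were pseudocounts (0.5 and 5 RPM), filters (none and 50 RPM), median-of-ratios scaling, quantile normalization, the replicate block, CON rows under the names as deposited, each library left out, and limma-voom, chosen after seeing the data. Python 3.11.15 with pandas 2.3.3, scipy 1.17.1 and matplotlib 3.10.9 was used for the rest. Named miRNAs were the arms, the 3 nearest profiles to each of miR-191-5p and miR-425-5p, the neighbours in level, sharers of a seed, and the 4 most abundant or passing members of each list. The members and lists were chosen with earlier results of these data known.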

Additional observations from a re-analysis of the deposited data

How the results depend on the processing

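Across the alternatives no arm passed, and the log2 fold changes of miR-191-5p, miR-425-3p and miR-425-5p kept their sign in each setting that gave them a value. Leaving out a library gave -0.43 to -0.30 for miR-191-5p, -0.61 to -0.40 for miR-425-3p, 0.063 to 0.30 for miR-425-5p and -0.072 to 0.36 for miR-191-3p. miR-191-3p was -0.072 without CON replicate 1, and the cause was not tested. Over all alternatives, the limma adjusted p was at least 0.151 for miR-191-5p and 0.240 for miR-425-3p. The count of called miRNAs was 3 to 6 with a library left out, 6 without CON replicate 2 and 5 without CON replicate 3.

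When CON rows kept the names as deposited, 0 miRNAs were called and every difference shrank, since the CON column then follows the SE order. miR-191-3p was -0.0026, the share of the 4 arms differed by -0.113 percentage points, and the log2 ratios by -0.13 for miR-191 arms, 0.22 for miR-425 arms and 0.18 for miR-425-5p to miR-191-5p. Leaving out a library gave -0.386 to -0.287 points for the share, beside -0.338 with all libraries. It gave -0.70 to -0.32, 0.47 to 0.89 and 0.45 to 0.62 for these ratios.

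Same-numbered SE and CON libraries deviated together with r of -0.42 to 0.045 over miRNAs, and differently numbered ones with r of -0.20 to 0.42. From 3 libraries per group such values cannot show whether the numbers mark a pairing. With the replicate block 3 miRNAs were called, miR-191-5p had a limma adjusted p of 0.318 and miR-425-3p 0.655. The filter of 50 RPM gave no value for miR-425-5p and miR-191-3p. The planned quasi-likelihood count test was not run, since the recovered reads rest on taking the lowest value of a column as 2 reads, and limma-voom was run on them instead. Depth limits miR-191-3p most, with 22 reads in CON replicate 1.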
